A study of Homo sapiens with 6 samples.

Results

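The genes described here are the matrix metalloproteinases (MMP), the ADAM proteases, the ADAMTS proteases and the tissue inhibitors of metalloproteinases (TIMP). They were taken as every protein-coding gene of the deposited count table whose symbol is MMP, ADAM, ADAMTS or TIMP followed by a number. This gave 58 of the 31831 genes listed: 19 MMP, 16 ADAM, 19 ADAMTS and 4 TIMP genes. Counts were high enough for a test in 38 of them, among 17142 genes tested, and the other 20 are described by their counts.

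RNA-seq was performed on HK-2 cells, an immortalised line of human kidney proximal tubule epithelium. Per the study's methods, all cells were kept in 30 mM glucose for 72 h and all carried a lentiviral vector. The sample labels speak of a control plasmid instead. In the control group (HG-NC, n = 3 libraries) the vector was empty, and in the other group (HG-OE, n = 3) it expressed hnRNP-F, an RNA-binding protein that acts in splicing. Both groups are a single cell line in high glucose, so no library here shows the normal-glucose state. The labels do not say whether the libraries of a group came from separate cultures. The study's methods describe parallel wells in each group, while its results speak of biological replicates. P-values measure the spread between these libraries of 1 cell line.

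MMPs are zinc proteases that cut collagens, gelatin, fibronectin, laminin and other matrix proteins. Most are secreted as inactive precursors, and the membrane-type members stay at the cell surface. ADAM proteases sit in the membrane and release the outer parts of growth factors, cytokines and receptors. ADAMTS proteases are secreted and cut proteoglycans, procollagens, fibrillin microfibrils or von Willebrand factor. TIMPs bind the active site of these enzymes and block it. In the kidney the balance of these proteases and their inhibitors is studied for its part in the turnover of basement membrane and in interstitial fibrosis.

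HNRNPF itself had 304, 318 and 311 CPM (its read count scaled to library size, with TMM factors) in HG-NC and 430.1, 451 and 422 in HG-OE. The groups did not overlap, and the log2 fold change was 0.48 ± 0.04 (SE, adjusted p = 2.8e-07, edgeR). Library totals ran from 25507595 to 29444841 counted read pairs. The line was checked against defining genes. PAX8, a kidney epithelial factor, had 15331 to 18291 counts in HG-NC and 11953 to 13747 in HG-OE, while the mature proximal tubule genes CUBN and SLC34A1 had 10 to 23 counts and AQP1 had 0 to 7. The 10 proximal tubule markers, nearly all of it PAX8, summed to 607 to 662 CPM in HG-NC and 430.4 to 478 CPM in HG-OE, groups that did not overlap. The part of this shift in the results below was not tested. HG-OE replicate 3 stood apart from the other 5 libraries. HNF4A had 323 counts in it and 0 in each of the others, LRP2 had 17 against 0, although only 4 of the 10 proximal tubule markers were highest in it and their sum was lowest in it. The liver gene ALB had 4359 against 0 to 78. The 78 counts were in HG-NC replicate 3, which also had 53 counts of APOB, 65 of FGA and 34 of HP. In HG-NC replicates 1 and 2 and HG-OE replicates 1 and 2 each of these 4 genes had 0 to 5 counts. The 12 liver markers summed to 709.6 CPM in HG-OE replicate 3 and to 461 and 463 CPM in the other HG-OE libraries. In HG-NC they summed to 265.5 to 276.7 CPM, and 10 of the 12 were highest in HG-OE replicate 3. Outside that library nearly all of the sum was SERPINA1. SERPINA1 had 6990 to 7221 counts in HG-NC and 13250, 13347 and 11560 in HG-OE. Every result on a protease that rests on HG-OE replicate 3 is therefore given with and without it.

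Promoter sequences are shown for 4 members before the values, because 3 of them are members with high levels that rose and the other is a contrast, and because they show how differently the promoters in this group are built. They are MMP7 and MMP14, the MMPs with the highest levels among those that rose in HG-OE, TIMP1, the inhibitor with the highest level, and MMP10, which lies near MMP7 on chromosome 11 and was at 0 to 2 counts. The windows are from RefSeq on GRCh38.p14 and run from 250 bases before to 50 bases after the gene's start, 5′ to 3′ along the gene. They cover chr11:102530698-102530997 (minus strand) for MMP7, chr11:102780579-102780878 (minus strand) for MMP10, chr14:22836335-22836634 (plus strand) for MMP14 and chrX:47582186-47582485 (plus strand) for TIMP1. Capitals mark exact matches to 4 short motifs. The first is TGANTCA on either strand, with any base at N. It is a loose form of the site bound by the AP-1 family of transcription factors. The next is the GC box, searched as GGGCGG on either strand and known as the site of Sp family factors. A site of ETS family factors was searched as AGGAAG, again on either strand. The last motif, the box that places the start of transcription in many regulated genes, was searched as TATAAA on the strand shown only. The AP-1 and ETS letters do not overlap the others in these windows.
MMP7: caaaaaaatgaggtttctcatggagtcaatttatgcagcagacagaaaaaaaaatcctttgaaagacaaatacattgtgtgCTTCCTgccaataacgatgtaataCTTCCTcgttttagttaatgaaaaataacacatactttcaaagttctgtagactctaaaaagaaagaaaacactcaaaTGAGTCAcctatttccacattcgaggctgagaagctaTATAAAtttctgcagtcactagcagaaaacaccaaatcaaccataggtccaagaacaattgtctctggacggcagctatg
MMP10: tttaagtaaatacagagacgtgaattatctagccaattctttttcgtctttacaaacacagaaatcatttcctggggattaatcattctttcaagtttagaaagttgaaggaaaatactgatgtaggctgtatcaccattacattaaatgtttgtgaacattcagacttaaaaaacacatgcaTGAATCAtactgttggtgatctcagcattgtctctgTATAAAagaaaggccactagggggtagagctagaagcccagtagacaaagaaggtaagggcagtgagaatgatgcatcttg
MMP14: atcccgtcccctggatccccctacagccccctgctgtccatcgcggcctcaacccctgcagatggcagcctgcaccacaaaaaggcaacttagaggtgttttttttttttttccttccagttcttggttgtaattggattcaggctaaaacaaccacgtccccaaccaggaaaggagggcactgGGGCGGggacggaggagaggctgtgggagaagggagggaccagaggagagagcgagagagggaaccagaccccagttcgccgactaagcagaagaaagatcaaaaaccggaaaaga
TIMP1: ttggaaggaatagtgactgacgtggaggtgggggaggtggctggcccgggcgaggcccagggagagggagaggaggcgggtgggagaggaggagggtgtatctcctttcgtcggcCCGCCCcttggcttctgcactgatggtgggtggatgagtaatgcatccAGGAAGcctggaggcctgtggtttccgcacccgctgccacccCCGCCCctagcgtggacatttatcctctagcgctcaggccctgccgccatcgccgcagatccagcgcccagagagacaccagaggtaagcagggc

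MMP7 and MMP10 share a layout. The AP-1 letters begin 67 bases before the start in both, and the TATA letters begin 30 bases before it in MMP7 and 31 bases before it in MMP10. Neither window holds a GC box, and their GC contents are 35.7% and 36.3%, against a median of 58.7% over 35116 promoters. MMP7 also holds the ETS letters, as CTTCCT, beginning 169 and 145 bases before the start. MMP14 is built differently, with no AP-1 or TATA letters, 1 GC box beginning 66 bases before the start and a GC content of 55.0%. TIMP1 has GC boxes, as CCGCCC, beginning 135 and 45 bases before the start and the ETS letters 87 bases before it. A promoter was given for 33 of the 58 members. Among these, AP-1 letters were found in 4 (MMP7, MMP10, MMP20, ADAMTS12), TATA letters in 5, ETS letters in 9 and a GC box in 25. The AP-1 letters were TGAGTCA in MMP7 and TGAATCA in MMP10, MMP20 and ADAMTS12. Over all promoters the shares were 7.71% for AP-1, 7.33% for TATA, 33.6% for ETS and 45.0% for the GC box. In HG-NC, MMP7 was at 13.6 FPKM (fragments per kilobase, scaled to library size, a level per length) and MMP10 at 0.02 FPKM. Their AP-1 letters differ at the N base, and MMP10 has no exact match to AGGAAG, which MMP7 holds. The inner letters GGAA, which were not searched alone, do occur in the MMP10 window, so an ETS site there is not excluded. The part of these motifs in the levels was not tested.

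The protease families did not move alike between HG-OE and HG-NC. Over all genes tested, 25.9% rose and 25.9% fell at an adjusted p under 0.05. Of the 12 MMP genes tested, 7 rose (58.3%) and 0 fell by that rule. Of the 13 ADAMTS genes tested, 5 fell (38.5%) and 2 rose (15.4%). In the 11 ADAM genes tested, 1 rose (ADAM19) and 2 fell (ADAM10 and ADAM17), and both TIMP genes with enough counts rose. The median log2 fold change was 0.66 for the MMPs, -0.13 for ADAMTS, -0.07 for ADAMs and 0.34 for TIMP1 and TIMP2. Over all 38 members tested it was 0.08, beside 0.01 over all genes tested. Whether the families differ from each other was not tested. In bulk libraries, a change in the number of cells of a type and a change in RNA per cell cannot be told apart.

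Read against all genes, the members as a whole did not stand out at the adjusted p alone. By that rule 19 of 38 passed, or 50%, with 12 higher and 7 lower, where the background is 51.8% of all genes, 25.9% higher and 25.9% lower. When at least a 2-fold difference was also required, 7 members passed, or 18.4%, against 5.82% of all genes. These were MMP11, MMP17, ADAM19 and ADAMTS15 higher in HG-OE (4 members, 10.5%, against 3.69% of all genes) and ADAMTS1, ADAMTS5 and ADAMTS10 lower (3 members, 7.89%, against 2.13%). The groups did not overlap in 21 of the 38 members, or 55.3%, against 59.0% of all genes.

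**Figure D1:**
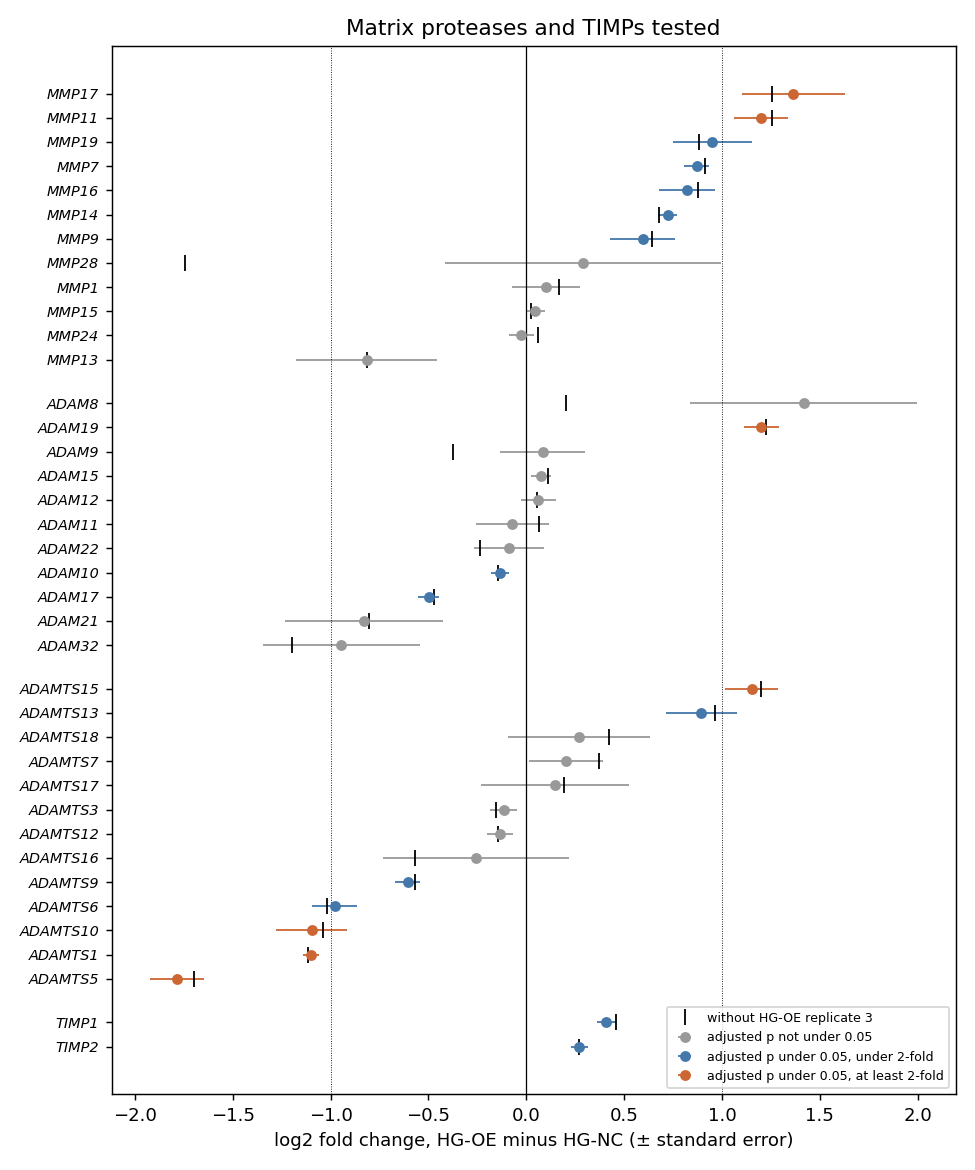
Fitted log2 fold change (HG-OE minus HG-NC, x axis) of the 38 members tested, by family, with the standard error as a bar and colour giving the call. The black tick is the value without HG-OE replicate 3. The MMP block leans to the right and the ADAMTS block to the left, and the ticks of MMP28, ADAM8 and ADAM9 lie far from their points.

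The membrane-type MMPs were the largest part of MMP RNA in these cells. MMP14 (MT1-MMP), a cell-surface collagenase that also activates pro-MMP2, had 115, 114 and 107 CPM in HG-NC and 179, 179.5 and 195 CPM in HG-OE. All 3 HG-OE libraries lay above all 3 controls, and MMP14 rose by a log2 fold change of 0.72 ± 0.05 (SE, adjusted p = 4.61e-08). MMP16 (MT3-MMP), a transmembrane relative, had 3.42, 3.65 and 4.18 CPM in HG-NC and 6.20, 7.62 and 6.10 CPM in HG-OE. Its groups did not overlap either, and it rose by 0.82 ± 0.14 on the log2 scale (adjusted p = 0.000254). MMP17 (MT4-MMP) is tied to the membrane by a lipid anchor and was scarce, with 20, 24 and 16 counts in HG-NC and 60, 44 and 65 in HG-OE. It rose 2.58-fold (log2 fold change 1.37 ± 0.26, adjusted p = 0.00066), the largest fold rise among the members tested that passed the test.

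The other membrane-type members did not pass. MMP15 (MT2-MMP) had 64.0 to 67.6 CPM in HG-NC and 65.1 to 70.3 CPM in HG-OE, with a log2 fold change of 0.05 ± 0.05 (adjusted p = 0.441). MMP24 (MT5-MMP), which is best known from neurons, had 2545, 2941 and 3040 counts in HG-NC and 3181, 3229 and 2683 in HG-OE, with a log2 fold change of -0.03 ± 0.06 (adjusted p = 0.768). The annotated exons of MMP24 share 18.4% of their bases with MMP24OS on the opposite strand, whose log2 fold change was 0.93. Whether the counting used the strand is not given in the sources used here, so reads of that stretch cannot be assigned with certainty. MMP25, the other lipid-anchored member, had 2 to 11 counts and was not tested.

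Among the secreted MMPs the largest in level was MMP7 (matrilysin), a small enzyme without the hemopexin domain, made by epithelia and studied in tubular injury. It had 38.2, 33.5 and 34.0 CPM in HG-NC and 69.1, 63.2 and 60.6 CPM in HG-OE. The groups were well apart, with means of 35.2 ± 2.57 and 64.3 ± 4.35 CPM (SD), and MMP7 rose 1.83-fold (log2 fold change 0.87 ± 0.06, adjusted p = 1.4e-07). MMP11 (stromelysin-3), which is activated inside the cell by furin, had 70, 70 and 69 counts in HG-NC and 181, 180 and 162 in HG-OE. It rose 2.30-fold (log2 fold change 1.20 ± 0.14, adjusted p = 7.65e-06), with little spread inside either group. MMP19, a protease of basement membrane proteins, had 50, 90 and 57 counts in HG-NC and 143, 120 and 151 in HG-OE, and rose by 0.95 ± 0.20 on the log2 scale (adjusted p = 0.00126). Its exons share 17.6% of their bases with TMEM198B on the opposite strand, which had a log2 fold change of 0.57.

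MMP9 (gelatinase B) was low, at 64, 63 and 84 counts in HG-NC and 129, 109 and 108 in HG-OE. It rose by 0.60 ± 0.17 on the log2 scale (adjusted p = 0.00807), and 18.4% of its exonic bases lie opposite SLC12A5-AS1, whose log2 fold change was 0.81. The other gelatinase, MMP2, had only 2 to 6 counts in any library. The collagenases did not pass the test. MMP1 had 62 to 77 counts in HG-NC and 73 to 90 in HG-OE (log2 fold change 0.10 ± 0.17, adjusted p = 0.659). MMP13 had 14, 15 and 15 counts in HG-NC and 8, 10 and 9 in HG-OE, groups that did not overlap, but at this depth its log2 fold change of -0.82 ± 0.36 had an adjusted p of 0.0749. MMP3, MMP10, MMP12, MMP20 and MMP21 had at most 6 counts in any library.

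MMP7, MMP20, MMP10, MMP1, MMP3, MMP12 and MMP13 lie in this order on chromosome 11, from chr11:102520508 to chr11:102955732 (GRCh38, GENCODE 44). Their levels in this single stretch ran from 24.6 FPKM for MMP7 in HG-OE through 0.893 FPKM for MMP1 to 0.00667 FPKM for MMP10 and MMP20. Of the 3 tested among them (MMP7, MMP1 and MMP13) MMP7 passed, and the 61 other tested genes within 10 Mb of it and with a mean of at least 100 counts had a median log2 fold change of 0.00.

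**Figure D2:**
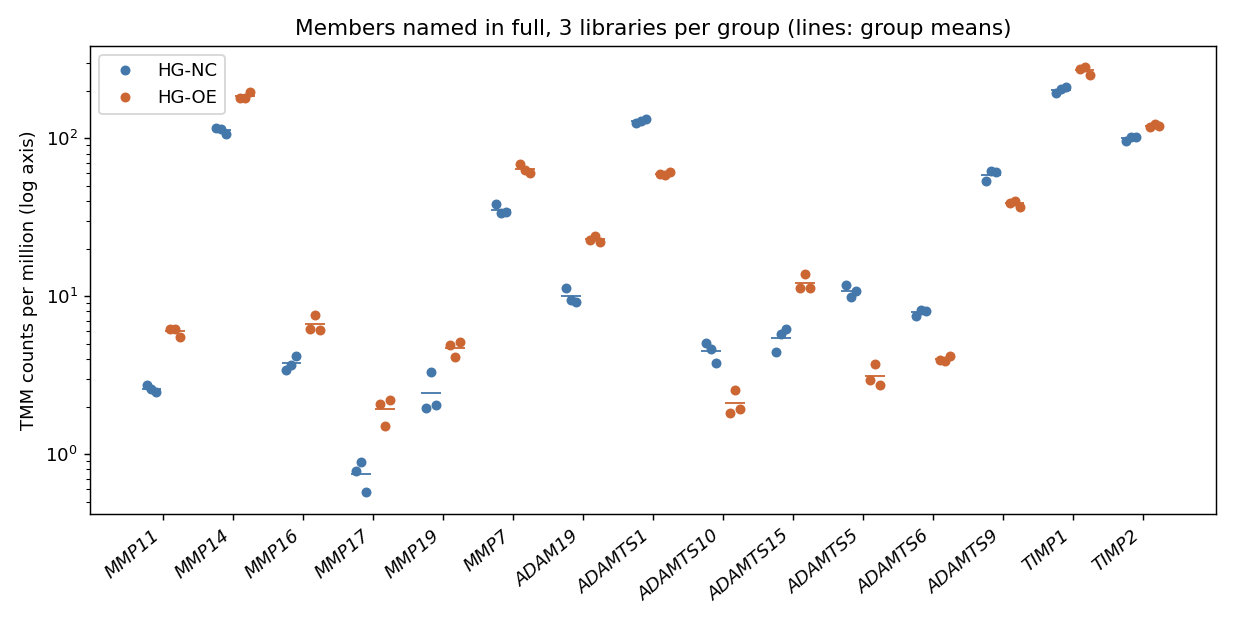
Level in each library, in CPM on a log axis, of the 15 tested members described with every library, with lines at the group means. HG-NC and HG-OE points separate in every gene, from MMP17, with means of 0.748 and 1.93 CPM, up to TIMP1, with means of 203 and 269.9 CPM. Apart from the TIMPs, the genes were chosen by adjusted p and fold change, which largely fixed this separation. Over all genes tested, the groups did not overlap in 59.0%.

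Both inhibitors with enough counts, TIMP1 and TIMP2, rose. TIMP1, a broad inhibitor of secreted MMPs that acts weakly on several membrane-type MMPs, had 194, 206 and 209.8 CPM in HG-NC and 276, 282 and 252 CPM in HG-OE. It rose 1.33-fold (log2 fold change 0.41 ± 0.05, adjusted p = 8.55e-06). TIMP2, which blocks MMP14 and also forms the complex through which MMP14 activates pro-MMP2, had 95.6, 101.5 and 102 CPM in HG-NC and 117, 123 and 120.3 CPM in HG-OE, a 1.21-fold rise (log2 fold change 0.27 ± 0.04, adjusted p = 0.000113). In both genes the groups did not overlap. Both log2 fold changes were below those of MMP14 and MMP7, which was not tested as a difference between genes. The exact permutation test on CPM, two-sided, gave 0.1 for each member named in full and tested, which is the smallest p that 3 against 3 libraries allow.

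The counts of TIMP3 and TIMP4 rested on 1 library. TIMP3, which binds to the matrix and also blocks ADAM17 and aggrecanases, had 0, 1 and 0 counts in HG-NC, 0 and 0 in HG-OE replicates 1 and 2, and 99 in HG-OE replicate 3. TIMP4 had 0 in each HG-NC library, 1 and 0 in HG-OE replicates 1 and 2, and 23 in replicate 3. Neither could be compared between groups, and in the other 5 libraries both genes were at or below 1 count.

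Summed per length, the TIMPs outweighed the MMPs. The TIMP sum was 135 to 147 FPKM in HG-NC and 175 to 191 FPKM in HG-OE, with means of 142 ± 6.02 and 185 ± 8.78 (SD, n = 3 each). The sum over the 19 MMPs was 74.2 to 75.2 FPKM in HG-NC and 99.8 to 103 FPKM in HG-OE. The ratio of these sums, TIMPs over MMPs, was 1.81, 1.91 and 1.98 in HG-NC and 1.83, 1.90 and 1.75 in HG-OE, so its groups overlapped. In CPM, which takes no account of gene length, the MMP sum was the larger, at 336 against 303 CPM in HG-NC and 449 against 391 CPM in HG-OE. Protein, secretion and activity were not measured, and the ratio describes RNA only.

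Within the MMP sum the composition shifted. MMP14 made up 29.0% ± 0.981 in HG-NC and 35.1% ± 2.14 in HG-OE (SD), and MMP7 went from 18.2% ± 1.33 to 24.3% ± 1.31. The shares of MMP24 and MMP15, whose own levels did not pass the test, were 29.0% and 18.8% in HG-NC and 20.8% and 14.2% in HG-OE. The membrane-type sum was 57.8 FPKM in HG-NC and 71.7 FPKM in HG-OE (ratio 1.24), and the sum of the other MMPs, most of it MMP7, was 16.8 and 29.3 FPKM (ratio 1.74). The ADAMTS sum went the other way, from 31.8 ± 1.26 to 20.8 ± 0.193 FPKM (ratio 0.653). The ADAM sum was 32.8 ± 0.598 FPKM in HG-NC and 31.6 ± 0.297 FPKM in HG-OE, close in size although the groups did not overlap. These sums are descriptions and were not tested.

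**Figure D3:**
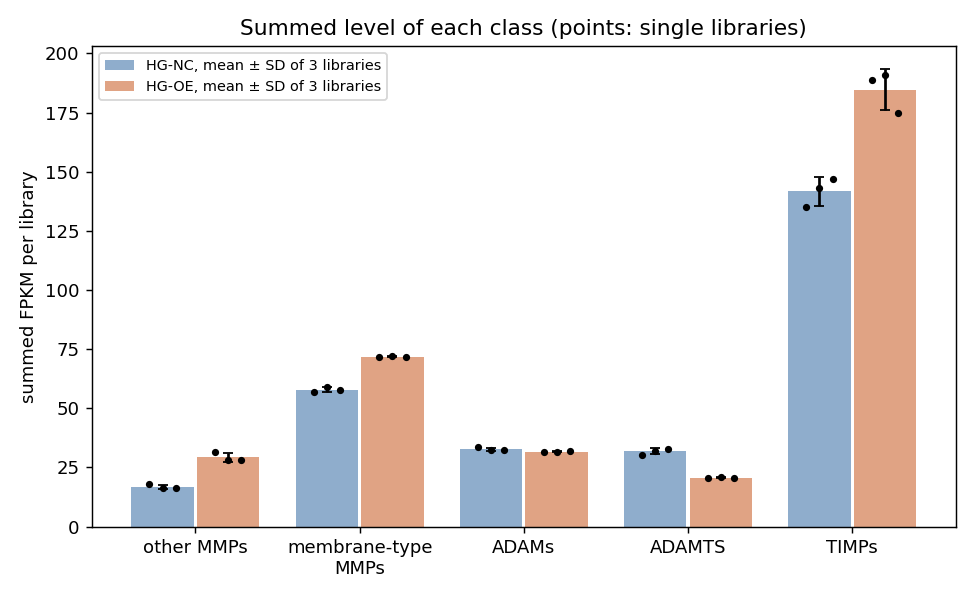
Summed FPKM per library of each class, as bars for the mean with the SD of 3 libraries and points for single libraries. The TIMP and both MMP bars are taller in HG-OE, the ADAMTS bar is shorter and the ADAM bars are close.

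The ADAMTS proteoglycanases, which cut versican and aggrecan, included the 2 largest falls among the members that passed, those of ADAMTS5 and, close to ADAMTS10, ADAMTS1. ADAMTS1, the most expressed ADAMTS gene here at 15.7 FPKM in HG-NC, had 124, 128 and 132 CPM in HG-NC and 59.4, 58.6 and 60.7 CPM in HG-OE. It fell by 1.10 ± 0.04 on the log2 scale (adjusted p = 4.68e-10), and the control level was 2.15-fold the HG-OE level. ADAMTS5, the main aggrecanase of cartilage, had 11.8, 9.89 and 10.8 CPM in HG-NC and 2.93, 3.74 and 2.76 CPM in HG-OE. It fell by 1.79 ± 0.14 on the log2 scale (adjusted p = 1.82e-07), and the controls were 3.45-fold higher. ADAMTS9, a versican-cleaving protease, had 53.5, 61.7 and 61.5 CPM in HG-NC and 39.1, 40.3 and 36.7 CPM in HG-OE, a fall by 0.61 ± 0.06 (adjusted p = 3.04e-06).

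ADAMTS15 moved against its class. It too cuts versican and aggrecan, and it had 4.40, 5.80 and 6.18 CPM in HG-NC and 11.3, 13.8 and 11.3 CPM in HG-OE, a 2.22-fold rise (log2 fold change 1.15 ± 0.13, adjusted p = 8.88e-06). Of the 7 proteoglycanases listed, 4 were tested, and 3 fell and 1 rose, beside 25.9% of all genes in each direction. ADAMTS4, ADAMTS8 and ADAMTS20 had at most 7 counts in any library. By level per length the rise did not offset the falls, since ADAMTS15 reached 1.79 FPKM in HG-OE while ADAMTS1 went from 15.7 to 7.23 FPKM.

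ADAMTS1 and ADAMTS5 are neighbours on chromosome 21, at chr21:26835755-26845409 and chr21:26917922-26967088, both on the minus strand with 72512 bases between them. The genes within 10 Mb of them, chosen in the same way, had median log2 fold changes of -0.24 in each case. With that median removed, the values were -0.86 for ADAMTS1 and -1.54 for ADAMTS5. ADAMTS9 on chromosome 3 lay among neighbours with a median of 0.34, opposite to its own fall.

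Outside the proteoglycanases and the procollagen propeptidases, 8 ADAMTS genes were tested. Of these 2 fell (25%) and 1 rose (12.5%), beside 25.9% of all genes in each direction. ADAMTS10 and ADAMTS6, both tied to fibrillin microfibrils, were lower in HG-OE. ADAMTS10 had 129, 126 and 106 counts in HG-NC and 53, 74 and 57 in HG-OE and fell by 1.10 ± 0.18 on the log2 scale (adjusted p = 0.000194). ADAMTS6 had 190, 222 and 224 counts in HG-NC and 114, 113 and 123 in HG-OE and fell by 0.98 ± 0.12 (adjusted p = 1.06e-05), just short of 2-fold. ADAMTS13, the protease of von Willebrand factor, had 42 to 63 counts in HG-NC and 97 to 119 in HG-OE and rose by 0.90 ± 0.18 (adjusted p = 0.000969). ADAMTS3, a procollagen propeptidase, and ADAMTS12 had 593 to 664 and 979 to 1236 counts, and their log2 fold changes of -0.12 and -0.13 did not pass (adjusted p = 0.186 and 0.107). ADAMTS7, ADAMTS16, ADAMTS17 and ADAMTS18 did not pass either, with values from -0.26 to 0.27. ADAMTS2, ADAMTS14 and ADAMTS19 had at most 12 counts.

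Among the ADAMs with a known active site, ADAM19 had the clearest difference. ADAM19, which processes neuregulins, had 11.2, 9.52 and 9.15 CPM in HG-NC and 22.5, 24.0 and 22.1 CPM in HG-OE, with a wide gap between the groups. It rose 2.30-fold (log2 fold change 1.20 ± 0.09, adjusted p = 1.45e-07), in a stretch of chromosome 5 whose genes had a median log2 fold change of 0.36. ADAM17, the sheddase of TNF-alpha and of EGF receptor ligands, had 94.5, 84.7 and 84.7 CPM in HG-NC and 64.2, 62.5 and 59.9 CPM in HG-OE. It fell by 0.50 ± 0.05 on the log2 scale (adjusted p = 3.26e-06). Its neighbours on chromosome 2 had a median of -0.28, and 10.3% of its exonic bases lie opposite IAH1, whose log2 fold change was -0.52.

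ADAM10, the sheddase of Notch and many cadherins, had 4959 to 5354 counts in the 6 libraries. Its fall by 0.13 ± 0.05 (adjusted p = 0.0235) was small. The call was lost without HG-NC replicate 1 (-0.09, adjusted p = 0.125), HG-NC replicate 3 (-0.14, adjusted p = 0.0666) or HG-OE replicate 2 (-0.11, adjusted p = 0.0996), and with limma on FPKM (adjusted p = 0.0535 to 0.0874 over 3 settings). ADAM15 and ADAM12 had log2 fold changes of 0.08 and 0.06 and did not pass (adjusted p = 0.24 and 0.581). ADAM21, with 6 to 22 counts, and the non-catalytic ADAM11, ADAM22 and ADAM32 did not pass, with values of -0.83, -0.07, -0.09 and -0.95. ADAM18, ADAM20 and ADAM33 had at most 14 counts.

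Several ADAMs and MMP28 depended on HG-OE replicate 3. ADAM9, a widely expressed sheddase, had 509, 547 and 580 counts in HG-NC, 454 and 457 in HG-OE replicates 1 and 2, and 974 in replicate 3. With all libraries its log2 fold change was 0.08 (adjusted p = 0.769), and without replicate 3 it was -0.38 (adjusted p = 0.000101). MMP28 (epilysin), an epithelial MMP, had 23, 12 and 12 counts in HG-NC and 4, 6 and 53 in HG-OE. Its log2 fold change was 0.29 (adjusted p = 0.755) with all libraries and -1.74 (adjusted p = 0.00653) without replicate 3. ADAM8, best known from leukocytes, had 12, 21 and 9 counts against 16, 19 and 88, and its value went from 1.42 (adjusted p = 0.0551) to 0.20 (adjusted p = 0.715).

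ADAM32 and ADAM15 crossed the threshold only when that library was left out, with log2 fold changes of -1.20 (adjusted p = 0.0362) and 0.11 (adjusted p = 0.049). ADAM23 and ADAM28 were not tested. They had 23 counts each in that library, against 0 to 1 and 1 to 4 in the others. In all, 7 members stood apart in it: TIMP3, TIMP4, ADAM8, ADAM9, ADAM23, ADAM28 and MMP28. Each of the 19 members that passed with all libraries kept its direction and its side of the threshold without it.

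Markers of other cell types were counted beside these members. The 10 squamous epithelial markers summed to 122.5 CPM in HG-OE replicate 3, 57.3 and 54.3 CPM in the other HG-OE libraries and 80.9 to 87.4 CPM in HG-NC, and KRT5 and KRT6A had 334 and 274 counts in it and 0 elsewhere. Of the 7 leukocyte markers listed, 3 were highest in it, and the sum was 18.3 CPM against 7.61 to 9.86 CPM, mostly CD14, while PTPRC had 1 to 2 counts in every library. The 7 fibroblast markers summed to 41.7 CPM against 31.9 to 38.9 CPM, with 3 of the 7 highest in it. Of these COL1A2 had 141 counts against 0, while COL1A1 had 289 counts in it and 294 to 367 in the others. The epithelial marker CDH1 had 384 counts in it and 2 to 10 in the others, and the 5 epithelial markers summed to 1749 CPM in it, 1114 and 1148 CPM in the other HG-OE libraries and 830.3 to 846 CPM in HG-NC, with 3 of the 5 highest in it. KRT8 and KRT18 were higher in every HG-OE library than in any control, and EPCAM and KRT19 were lower. Male germ cell markers, for which 3 of 7 genes were listed, had at most 15 counts in sum. The part of these cells or RNAs in the 7 members was not tested.

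**Figure D4:**
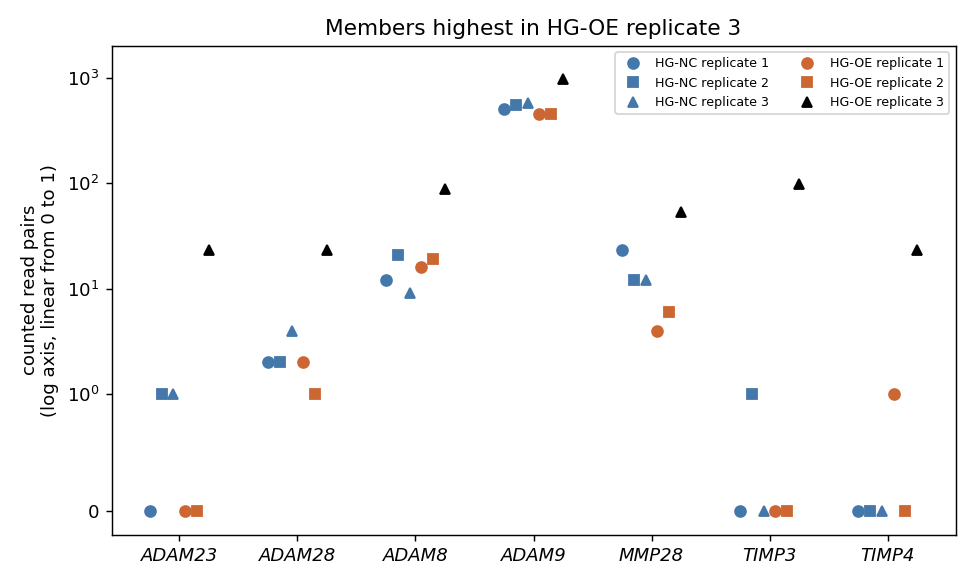
Counted read pairs in each of the 6 libraries, on a log axis that is linear from 0 to 1, of the 7 members that stood apart in 1 library. The black triangle, HG-OE replicate 3, is the highest point in every gene, and for TIMP3 it lies at 99 counts while the others lie at 0 or 1.

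Position on the chromosomes was looked at for all 38 tested members. For each, the median log2 fold change of other tested genes within 10 Mb and with a mean of at least 100 counts was taken. These medians ran from -0.37 around ADAMTS3 to 0.36 around ADAM19. Among the 19 members that passed, none changed sign when the median of its neighbours was removed, and the smallest values left were those of ADAM10 (-0.09) and ADAM17 (-0.22). The median over the members became 0.10 in place of 0.08. The part of the region in any of these values was not tested.

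**Figure D5:**
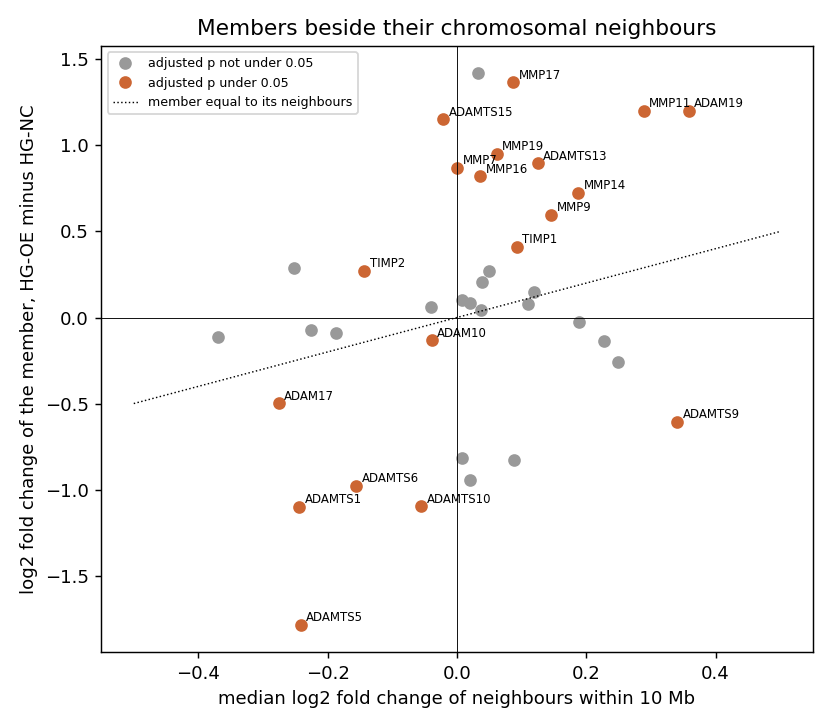
Log2 fold change of each tested member (y axis) against the median of its neighbours within 10 Mb (x axis), with a dotted line where both are equal. Members that passed the test lie away from that line, with ADAM10 and ADAM17 the closest to it, and ADAMTS9 fell among neighbours with a median of 0.34.

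The wider protease network was described by a list of 59 other genes: activators, inhibitors, partners, transcription factors and further extracellular proteases. Of these 50 were tested, 18 rose and 17 fell at an adjusted p under 0.05, with a median log2 fold change of 0.01, where the background is 25.9% of all genes in each direction. With the 2-fold rule 4 of the 50 passed, against 5.82% of all genes, SERPINF2, SPOCK2 and ST14 higher and TFPI2 lower. ST14 (matriptase) had 13 to 18 counts in 5 libraries and 157 in HG-OE replicate 3, and its log2 fold change of 1.96 became -0.04 without that library.

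The activators of MMP precursors did not move together. In the plasmin system, which activates several pro-MMPs, 5 of 7 tested genes fell and 1 rose, beside 25.9% of all genes in each direction. PLAU (urokinase) had 23931, 27754 and 27937 counts in HG-NC and 16367, 17888 and 15228 in HG-OE and fell by 0.80 ± 0.05 on the log2 scale (adjusted p = 5.88e-08). The inhibitor of plasmin SERPINF2 was the gene that rose (1.22, adjusted p = 0.0017, 17 to 72 counts). The proprotein convertases FURIN and PCSK7, which cut the furin site of membrane-type MMPs, MMP11, ADAMs and ADAMTS proteases, rose by 0.70 ± 0.10 (adjusted p = 3.39e-05) and 0.42 ± 0.06 (adjusted p = 8.54e-05). Without HG-OE replicate 3, where FURIN was highest, the value of FURIN was 0.54, and that of PCSK7 was 0.47. PCSK6 had 90 counts in HG-OE replicate 3 and 0 or 1 in the others.

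Inhibitors outside the TIMP family also split. TFPI2, a secreted Kunitz inhibitor of plasmin, had 7291, 7806 and 8096 counts in HG-NC and 3709, 3709 and 3551 in HG-OE. It fell by 1.20 ± 0.04 (adjusted p = 1.09e-10), the opposite direction to TIMP1 and TIMP2. RECK, a membrane-anchored MMP inhibitor, fell by 0.29 (adjusted p = 0.0207), while SPOCK1 and the cysteine protease inhibitor CST3 rose. SPOCK2, listed beside them but not taken here as an inhibitor, had 12 to 51 counts and rose by 1.06 (adjusted p = 0.0102). THBS1, a matrix glycoprotein that binds MMPs, had 5809 to 6713 counts in HG-NC and 3290 to 4226 in HG-OE and fell by 0.94 ± 0.07 (adjusted p = 2.39e-07).

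The partners of ADAM17 and ADAM10 held rises and falls. Of the 9 tested, 4 rose and 2 fell, where 25.9% of all genes rose and 25.9% fell. RHBDF1 (iRhom1), a carrier of ADAM17, was at 0.36 (adjusted p = 0.0126), and FRMD8, which stabilises that complex, at 0.29 (adjusted p = 0.00125). The tetraspanins that carry ADAM10 split: TSPAN17 and TSPAN33 rose by 0.64 and 0.29 (adjusted p = 1.59e-07 and 0.0016), TSPAN5 and TSPAN15 fell by 0.51 and 0.49 (adjusted p = 7.99e-06 and 2.08e-06), and TSPAN10 and TSPAN14 did not pass. Among 11 AP-1 and ETS factors 4 fell (ETS2, FOSL2, ETS1 and ETV5) and JUNB rose, beside the same shares of all genes. Among the other extracellular proteases DPP4 rose by 0.90 ± 0.05 (adjusted p = 5.17e-09), and the tolloid family proteases BMP1, a procollagen C-proteinase, and TLL2 rose by 0.73 and 0.77 (adjusted p = 5.85e-08 and 6.17e-05), whereas TLL1 fell by 0.43 (adjusted p = 0.0249).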

How the data were processed

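Polyadenylated RNA of 6 HK-2 libraries was sequenced as paired reads from directional libraries. The submitters' notes name HISAT2 and the build GRCh38, and per the study's methods only pairs with a unique alignment, after trimming, were counted per gene. The deposited counts are whole numbers without normalization, and the deposited FPKM values were computed by the authors per kilobase and library size. The counting program, its use of strand and the annotation release are not given in the sources used here, nor is it stated whether the batch adjustment named in the study's methods (ComBat_seq) entered these values. Groups were taken from the sample labels, and glucose, time and vector from the study's methods.

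Counts were fitted with edgeR 4.0.16 in R 4.3.3 (TMM, filterByExpr, quasi-likelihood test, no replicate block) over 17142 genes, with Benjamini-Hochberg adjustment over all of them. A gene passed at an adjusted p under 0.05, and the 2-fold rule was added as a second call. The study names DESeq2, which was run as an alternative (1.42.0), beside other filters, limma 3.58.1 on log2(FPKM + 1) and log2(FPKM + 0.1), each library left out and a replicate block. Differences between libraries of a group exceeded counting noise in every pair, and none was merged. The chi-square per degree of freedom was 11.5 and 11.1 in the pairs with HG-OE replicate 3 and 2.18 to 3.48 in the other pairs. Positions are from GENCODE 44, and promoters from RefSeq. The fits were tested on simulated data in which all genes shared a single dispersion and no library stood apart. Large changes were placed only in genes with more counts. The simulation therefore does not cover small changes, members with few counts or a library like HG-OE replicate 3.

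The members and gene lists were chosen with earlier results of these data known. Members described with every library were the TIMPs, those past the 2-fold rule, and those with a mean of at least 100 counts, an adjusted p under 0.05 and a log2 fold change of at least 0.5 in size. ADAM9, ADAM8, MMP28, MMP9, MMP13, MMP24, ADAM10, ADAM17 and the plasmin, furin, tetraspanin and inhibitor genes beyond the 3 largest rises and falls of the list were named after their values were seen. Tests of FPKM are on the log2(value + pseudocount) scale, which understates differences of low genes.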

Additional observations from a re-analysis of the deposited data

How the results depend on the processing

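All 7 members past the 2-fold rule were called again with DESeq2 size factors, the DESeq2 Wald test, at least 10 counts in every library, no low-count filter, the replicate block and each library left out. With limma on log2(FPKM + 1), filtered or not, 1 remained (0 higher and 1 lower, ADAMTS1), 144 and 138 of all genes were called in place of 997, 1 listed pathway gene was called in place of 4, and the median of the members was 0.0345 and 0.00911. On log2(FPKM + 0.1), 5 members (MMP17 and ADAMTS10 lost) and 2 pathway genes were called. Without a low-count filter 7 members were higher (ADAM8, TIMP3 and TIMP4 added), 8 pathway genes and 1539 genes were called, and 617 genes with the 10-count minimum. Leaving out 1 library at a time gave 7 to 10 members called, 4 to 6 higher and 3 to 6 lower (6 without HG-OE replicate 3), a median from 0.034 to 0.12 and 3 to 5 pathway genes. HNRNPF less the median of its neighbours was 0.39, and the membrane-type MMP ratio on CPM was 1.27. The cause of these shifts was not tested beyond the fewer or added genes and the pseudocount that define them.

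Values that turned sign belong to members that did not pass the test with all libraries. With 1 library left out they ran from -0.17 to 0.063 for ADAM11, -0.24 to 0.019 for ADAM22, -0.38 to 0.27 for ADAM9, -0.57 to 0.10 for ADAMTS16, -0.048 to 0.53 for ADAMTS17, -0.073 to 0.059 for MMP24 and -1.74 to 0.77 for MMP28. On log2(FPKM + 0.1) ADAM9 was -0.018 and MMP28 -0.11. The replicate numbers did not pair the libraries (correlations of same-numbered deviations -0.03, 0.03 and -0.00099). With the replicate block 7 members and 990 genes were called and 20 members passed the adjusted p, ADAMTS12 being added (-0.13, adjusted p = 0.0484), and MMP28 was -0.087. Members under about 10 counts could not be compared at this depth.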
